A study of Mus musculus with 34 samples.

Results

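The YTH-domain m6A readers are the 5 mouse genes *Ythdf1*, *Ythdf2*, *Ythdf3*, *Ythdc1* and *Ythdc2*, and all 5 were rows of the deposited count table of 13108 genes, from which they were taken by gene name. They were followed in HSCs from mice in which *Ythdf2* itself was the deleted gene. The comparisons address how many *Ythdf2* reads remained after deletion, and whether the transcripts of the other 4 readers differed between the genotypes.

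RNA-seq was performed on HSCs (LSK CD48-CD150+) sorted from bone marrow of C57BL/6 mice, with 100 cells per library and 2 libraries, A and B, per mouse. *Ythdf2* CKO mice carry the floxed *Ythdf2* fl/fl allele and *Vav-iCre*, a transgene that expresses Cre recombinase throughout the hematopoietic system, and their libraries are labelled as *Ythdf2* knockout. *Ythdf2* CTL mice are littermates whose libraries are labelled as wild type, but the study describes its controls as *Ythdf2* fl/fl and names no Cre for them. The floxed allele, with GFP inserted after the start codon and *loxP* sites around exon 2, was therefore common to all groups by that description. The young groups held 4 *Ythdf2* CTL and 4 *Ythdf2* CKO mice, and the groups of 1 year of age held 4 *Ythdf2* CTL and 5 *Ythdf2* CKO mice.

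The total count per library lay between 1859784 and 7784627 (median 3038180) in 33 libraries. Library B of the 1-year *Ythdf2* CTL mouse 99 held 187034 counts and was left out. Libraries of a mouse were added, and levels are given as CPM, counts scaled to a common library total by TMM over the 17 mice. Genes of the Y chromosome were detected in 3 of 4 young *Ythdf2* CTL, 1 of 4 young *Ythdf2* CKO, 1 of 4 1-year *Ythdf2* CTL and 1 of 5 1-year *Ythdf2* CKO mice, so that sex was not balanced. All 10 HSC markers examined, *Procr*, *Slamf1* and *Kit* among them, were detected in every group. Their summed level did not overlap between the young groups, at 1483 to 1832 CPM in *Ythdf2* CTL and 1908 to 2425 CPM in *Ythdf2* CKO mice, and the 1 of the 10 called there was *Ly6a* (mean 280 against 643 CPM), which encodes the Sca-1 protein used in the sort. *Cd48*, whose protein the sort gates against, did not overlap either, at 53.9 to 87.1 CPM in young *Ythdf2* CTL and 98.0 to 105.6 CPM in young *Ythdf2* CKO mice, and was not called. At 1 year its means were 11.8 CPM in *Ythdf2* CTL and 12.4 CPM in *Ythdf2* CKO mice. The summed level of 6 megakaryocyte and platelet markers was not tested as a sum and stood at 507 to 813 CPM in young *Ythdf2* CTL against 966 to 2998 CPM in young *Ythdf2* CKO mice, and at 373 to 538 against 543 to 1894 CPM at 1 year, with 1 of the 6 genes called in young and 0 in 1-year mice by edgeR. The gene called, *Pf4*, held most of the sum in young mice (mean 440 against 1529 CPM), whereas *Gp9* (84.5 against 61.8 CPM) and *Gp1ba* (27.4 against 23.1 CPM) had lower means in young *Ythdf2* CKO mice. At 1 year the means of all 6 were higher in *Ythdf2* CKO mice, those of *Gp9* (59.6 against 110 CPM) and *Gp1ba* (18.4 against 39.6 CPM) included. None of these 6 markers was at 0 throughout a group. The part of sex and of these markers in the results on the readers was not tested, except for the Y-linked covariate given below.

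N6-methyladenosine (m6A) is a mark on internal adenosines of mRNA that proteins with a YTH domain bind directly. The cytoplasmic YTHDF1, YTHDF2 and YTHDF3 are close paralogs. YTHDF2 is best known for bringing marked mRNAs to the CCR4-NOT deadenylase complex for decay, and YTHDF1 and YTHDF3 have been linked to translation as well as decay. YTHDC1 is the nuclear reader, linked to splicing and to export of mRNA, and YTHDC2 is a large protein with an RNA helicase domain that is known for its role in meiosis. In the hematopoietic system YTHDF2 limits the number of HSCs.

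In GRCm38 with the GENCODE M21 annotation, *Ythdf2* (ENSMUSG00000040025.17) lies on the minus strand of chromosome 4 (132184912 to 132212303), and its principal transcript has 5 exons and 4129 bases, 579 codons of them coding. Exon 2 of that transcript (chromosome 4, 132211432 to 132211456) is wholly coding and only 25 bases long, 0.606% of the transcript. The 5′ end of the coding sequence is shown from its start codon, because the removal of exon 2 changes what is read after it. The first sequence runs through exon 3, and the second ends within exon 3. In the first sequence the capitals mark exon 2. In the second, exon 2 is skipped and the capitals mark the stop codon that comes into frame.

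Ythdf2 with exon 2 (chr4:132210752-132211926, minus strand, spliced): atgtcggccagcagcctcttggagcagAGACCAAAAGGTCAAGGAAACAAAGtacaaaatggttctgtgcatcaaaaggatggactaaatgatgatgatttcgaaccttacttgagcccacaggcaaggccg
Ythdf2 without exon 2 (chr4:132210790-132211926, minus strand, spliced): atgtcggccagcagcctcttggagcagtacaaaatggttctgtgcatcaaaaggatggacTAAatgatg

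With exon 2 absent, translation would run through 20 codons, the first 9 of them in the original frame, to a TAA in exon 3, with 2 exon-exon junctions after it. These are properties of the reference sequence, in which the GFP insertion is missing, and they assume that the exon 2 of the floxed allele is exon 2 of this transcript. Exons 4 and 5, which hold 38.4% and 49.3% of the transcript, stay in place on the deleted allele. A count per gene therefore includes reads of transcripts that lack exon 2, and the counts per gene do not show which *Ythdf2* transcripts were intact.

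The other readers lie at chromosome 2, 180904377 to 180920949 (*Ythdf1*, minus strand), chromosome 3, 16183212 to 16217037 (*Ythdf3*, plus strand), chromosome 5, 86804221 to 86836659 (*Ythdc1*, plus strand) and chromosome 18, 44827746 to 44889724 (*Ythdc2*, plus strand). The coding sequences of the Ythdf paralogs were 67.7% (*Ythdf1* and *Ythdf2*), 68.1% (*Ythdf1* and *Ythdf3*) and 70.5% (*Ythdf2* and *Ythdf3*) identical, but no stretch of 50 bases was common to the principal transcripts of any pair of the 5 readers. Of the stretches of 50 bases in *Ythdf2*, 8.55% also occurred elsewhere in the annotated transcripts, mainly in *Gm6823*. For *Ythdc1* that share was 20.1%, all in *Gm43055*, a long noncoding RNA that overlaps *Ythdc1* on the same strand, so reads over that stretch cannot be assigned to either gene. Neither of these other genes was a row of the count table. The motif GGACT, the commonest core of m6A sites, was searched on the sense strand of the principal transcripts and occurred 5 times in *Ythdf2*, 3 times in *Ythdc2*, once in each of *Ythdf1* and *Ythdf3* and 0 times in *Ythdc1*. At 1.21 per kb, *Ythdf2* had a density above that of 60.1% of 12450 genes, whose median was 1.05 per kb, and 92.4% of those genes held the motif. A match is not a measured m6A site.

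The targeted gene was examined first. In young *Ythdf2* CTL mice the level of *Ythdf2* was 118, 123, 93.4 and 97.2 CPM in mice 1 to 4, from 538 to 682 counts each. In young *Ythdf2* CKO mice it was 55.6, 57.6, 60.3 and 50.3 CPM in mice 1 to 4, from 281 to 335 counts. Every young *Ythdf2* CKO mouse was lower than every young *Ythdf2* CTL mouse, and the *Ythdf2* CKO mice varied little, with a coefficient of variation of 7.51% against 13.8% in the controls.

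*Ythdf2* thus fell from 108 ± 14.9 (SD, n = 4) to 55.9 ± 4.20 CPM (SD, n = 4), and 51.9% of the control level remained by the fitted fold change. The log2 fold change was -0.95 (SE 0.17, 95% interval -1.32 to -0.58), with an adjusted p of 0.0406 by the quasi-likelihood test of edgeR. The two-sided exact permutation test over the 8 mice gave p = 0.0286, the smallest it can give with 4 mice in each group. *Ythdf2* was the only one of the 5 readers called in young mice, where 0.174% of the 11526 genes tested were called, and the only one whose groups did not overlap, which was so for 4.77% of the genes. An unadjusted p below 0.05 was found for 7.06% of the genes, and *Ythdf2* ranked 18th among them. The call depended on the fit. With all 17 mice in 1 fit the log2 fold change was again -0.95, with p = 0.00355 and an adjusted p of 0.804 by edgeR. When each mouse was left out in turn, the log2 fold change stayed between -1.01 and -0.87 with an unadjusted p of at most 0.000446, but the adjusted p was below 0.05 in 1 of the 8 fits, the one without *Ythdf2* CKO 3 (adjusted p = 0.0368), and as high as 0.211 in the one without *Ythdf2* CTL 1. A covariate for Y-linked genes gave a log2 fold change of -0.90 (adjusted p = 0.170).

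The same separation was present in single libraries. All 8 young *Ythdf2* CKO libraries had between 36.3 and 64.1 CPM of *Ythdf2*, and all 8 young *Ythdf2* CTL libraries had between 85.7 and 148 CPM. Libraries A and B of a mouse differed in *Ythdf2* by a median of 0.30 on the log2 scale over 16 mice. That median was 0.30 for *Ythdc1*, 0.63 for *Ythdf3*, 0.66 for *Ythdc2* and 0.69 for *Ythdf1*.

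At 1 year of age, *Ythdf2* did not follow the labels in every mouse. The level was 142, 70.5, 179 and 164 CPM in the mice labelled *Ythdf2* CTL 114, 124, 65 and 99. In the mice labelled *Ythdf2* CKO 121, 122, 78, 81 and 94 it was 188, 72.4, 75.8, 87.8 and 73.8 CPM. The mouse labelled *Ythdf2* CKO 121 was thus above all mice labelled *Ythdf2* CTL, and the mouse labelled *Ythdf2* CTL 124 was below all mice labelled *Ythdf2* CKO.

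Both of these mice showed the same in each of their libraries. *Ythdf2* stood at 213 and 145 CPM in libraries A and B of the mouse labelled *Ythdf2* CKO 121, and at 66.2 and 76.4 CPM in those of the mouse labelled *Ythdf2* CTL 124. Their libraries were not copies of each other, since the counts of libraries A and B differed beyond sampling noise in all 16 mice with a pair, by chi-square statistics that were 9.93 or more per degree of freedom, the highest being 54.4 in the mouse labelled *Ythdf2* CTL 124. The labels were kept as deposited, and the results on the readers at 1 year are also given without these 2 mice.

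With all 9 mice, *Ythdf2* was 139 ± 48.1 CPM (SD, n = 4) in 1-year *Ythdf2* CTL and 99.6 ± 49.9 CPM (SD, n = 5) in 1-year *Ythdf2* CKO mice. This gave a log2 fold change of -0.48 (SE 0.33, 95% interval -1.18 to 0.22), which was not called by edgeR (adjusted p = 0.661). The exact permutation test over mice, two-sided, gave p = 0.333. Without the mice labelled *Ythdf2* CKO 121 and *Ythdf2* CTL 124 the levels were 162 ± 18.7 CPM (SD, n = 3) and 77.4 ± 7.02 CPM (SD, n = 4), a log2 fold change of -1.06. This last value is a description without a test, because the mice were left out for their level of *Ythdf2*.

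**Figure D1:**
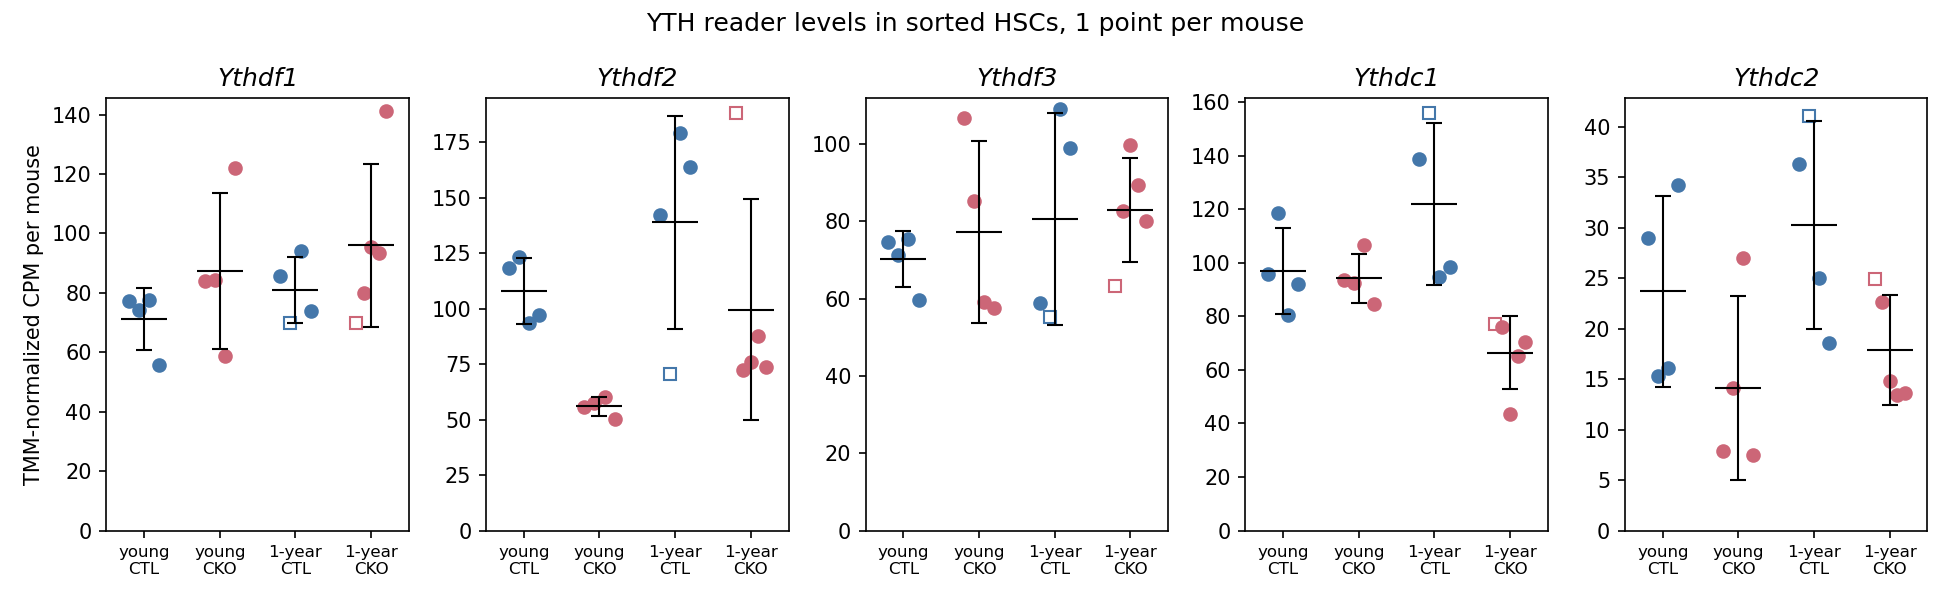
TMM-normalized CPM of each reader (vertical axis, from 0) in the HSCs of each mouse, grouped by age and genotype. Points are mice, horizontal lines are means, bars are 1 SD, and open squares are the mice labelled 1-year CKO 121 and 1-year CTL 124. *Ythdf2* lay between 50.3 and 60.3 CPM in young CKO and between 93.4 and 123 CPM in young CTL mice, and *Ythdc1* separated the genotypes at 1 year only.

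**Figure D2:**
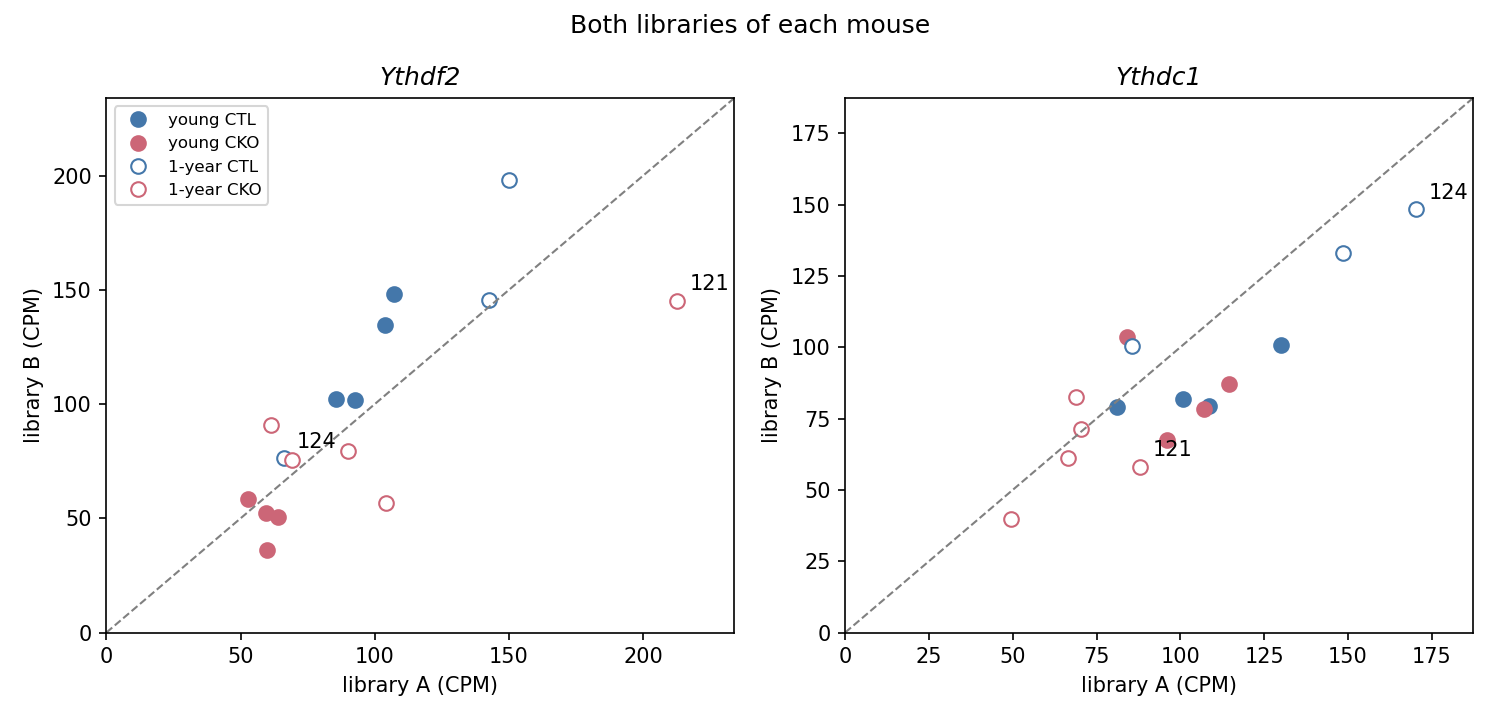
CPM in library B (vertical axis) against library A (horizontal axis) for *Ythdf2* and *Ythdc1* in the 16 mice with a pair of libraries, with the dashed line at equal values. The mouse labelled CKO 121 had high *Ythdf2* in each library (213 and 145 CPM) and the mouse labelled CTL 124 low *Ythdf2* in each (66.2 and 76.4 CPM).

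Among the other cytoplasmic YTHDF readers, *Ythdf1* was somewhat higher on average in *Ythdf2* CKO mice of both ages, without passing the test in either. Its level was 77.2, 74.1, 77.7 and 55.8 CPM in young *Ythdf2* CTL mice 1 to 4. In young *Ythdf2* CKO mice 1 to 4 it was 84.1, 84.5, 58.7 and 122 CPM. Thus 3 of 4 *Ythdf2* CKO mice were above the highest control, and the remaining mouse was next to the lowest control.

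The means of *Ythdf1* were 71.2 ± 10.4 CPM (SD, n = 4) and 87.3 ± 26.1 CPM (SD, n = 4). Between them the log2 fold change was 0.30 (SE 0.22, 95% interval -0.17 to 0.77), with an adjusted p of 0.888 by edgeR and p = 0.314 by the two-sided exact permutation test. The interval thus reached from 0.890 to 1.70 times the control level. At 1 year the 4 *Ythdf2* CTL mice had between 69.8 and 94.1 CPM of *Ythdf1* (median 79.7), and the 5 *Ythdf2* CKO mice between 69.8 and 141 CPM (median 93.4). The groups overlapped, with 2 of 5 *Ythdf2* CKO mice above the highest control, and the log2 fold change was 0.26 (95% interval -0.22 to 0.73, adjusted p = 0.755 by edgeR). Without the 2 mice whose *Ythdf2* went against the label it was 0.27 (95% interval -0.20 to 0.74). At each age the size rested largely on the highest *Ythdf2* CKO mouse. It was 0.089 in young mice without *Ythdf2* CKO 4 and 0.070 at 1 year without *Ythdf2* CKO 94, and leaving out each mouse in turn gave 0.089 to 0.45 and 0.070 to 0.35.

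*Ythdf3* is the third paralog. In young *Ythdf2* CTL mice 1 to 4 it stood at 74.6, 71.2, 75.5 and 59.7 CPM. In young *Ythdf2* CKO mice 1 to 4 it stood at 107, 85.4, 59.1 and 57.5 CPM. The *Ythdf2* CKO mice lay on either side of the controls, 2 above and 2 below all of them.

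The log2 fold change of *Ythdf3* in young mice was 0.14 (SE 0.22, 95% interval -0.32 to 0.60), with an adjusted p of 0.956 by edgeR and p = 0.714 by the exact permutation test. With the covariate for Y-linked genes it was 0.36 (adjusted p = 0.793 by edgeR), against 0.41 for *Ythdf1* (adjusted p = 0.835), and the difference between these paralogs was not tested. At 1 year *Ythdf3* lay between 55.2 and 109 CPM in *Ythdf2* CTL and between 63.2 and 99.7 CPM in *Ythdf2* CKO mice, and the *Ythdf2* CKO range was inside that of the controls. Here the log2 fold change was 0.05 (95% interval -0.47 to 0.57), with the covariate 0.07, and it was -0.02 (95% interval -0.50 to 0.46) without the mice labelled 121 and 124. For both paralogs the intervals include no change as well as increases of 1.49-fold (*Ythdf3*, 1 year) to 1.70-fold (*Ythdf1*, young).

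*Ythdc1*, the nuclear reader, did not separate the genotypes in young mice. Its level in young *Ythdf2* CTL mice 1 to 4 was 95.9, 119, 80.6 and 92.2 CPM. In young *Ythdf2* CKO mice 1 to 4 it was 93.7, 92.5, 107 and 84.4 CPM, all inside the range of the controls. Between the groups the log2 fold change was -0.04 (SE 0.17, 95% interval -0.40 to 0.33), with an adjusted p of 0.986 by edgeR and p = 0.857 by the exact permutation test.

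At 1 year of age *Ythdc1* was lower in every mouse labelled *Ythdf2* CKO than in every mouse labelled *Ythdf2* CTL. It stood at 139, 156, 94.6 and 98.6 CPM in the mice labelled *Ythdf2* CTL 114, 124, 65 and 99. It stood at 77.0, 76.0, 43.6, 65.3 and 70.4 CPM in the mice labelled *Ythdf2* CKO 121, 122, 78, 81 and 94. The 2 mice whose *Ythdf2* went against the label were on the side of their label for *Ythdc1*.

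The means of *Ythdc1* at 1 year were 122 ± 30.2 CPM (SD, n = 4) and 66.5 ± 13.6 CPM (SD, n = 5). The log2 fold change was -0.87 (SE 0.22, 95% interval -1.34 to -0.40), equal to 54.8% of the control level. By the quasi-likelihood test of edgeR it did not pass after adjustment over all genes (p = 0.00152, adjusted p = 0.297), and it ranked 57th among 11961 genes, of which 0% were called and 10.1% had an unadjusted p below 0.05. The two-sided exact permutation test over mice gave p = 0.0159, the smallest it can give with these group sizes, and groups that did not overlap were found for 3.48% of genes. The call depended on the test. The Wald test of DESeq2 gave an adjusted p of 0.0398, with 0.869% of genes called, and the likelihood ratio test of edgeR over mice gave 0.0498, with 0.635% of genes called. When each of the 9 mice was left out in turn, the log2 fold change lay between -0.99 and -0.74, with unadjusted p between 0.000929 and 0.0060 and adjusted p between 0.170 and 0.653.

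Without the mice labelled *Ythdf2* CKO 121 and *Ythdf2* CTL 124, *Ythdc1* was 111 ± 24.4 CPM (SD, n = 3) against 63.8 ± 14.2 CPM (SD, n = 4). This left a log2 fold change of -0.80 (95% interval -1.29 to -0.30, adjusted p = 0.182 by edgeR), in a fit that called 0.333% of genes and in which 11.5% of genes had groups without overlap. The exact permutation test then gave p = 0.0571, the smallest it can give with 3 and 4 mice. In single libraries of all 1-year mice the groups met but barely overlapped, at 85.6 to 170 CPM in 7 *Ythdf2* CTL libraries and 39.9 to 87.9 CPM in 10 *Ythdf2* CKO libraries. The values of 170 and 87.9 CPM came from library A of the mice labelled *Ythdf2* CTL 124 and *Ythdf2* CKO 121. The genotype effect on *Ythdc1* was lower at 1 year than in young mice by 0.84 on the log2 scale (95% interval of the difference -1.43 to -0.25). That difference had a p of 0.00753 but an adjusted p of 0.942 by edgeR, in a test that called 0% of 12352 genes and gave 588 of them an unadjusted p below 0.05. Without the mice labelled 121 and 124 it was -0.76 (p = 0.0141, adjusted p = 0.599). Fewer cells with the transcript and less of it per cell cannot be told apart in these pools of 100 cells.

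*Ythdc2* was the rarest reader, with 40 to 293 counts per mouse, and was lower on average in *Ythdf2* CKO mice at both ages without a call. In young *Ythdf2* CTL mice 1 to 4 it was 29.0, 15.4, 16.1 and 34.2 CPM. In young *Ythdf2* CKO mice 1 to 4 it was 7.91, 14.1, 27.0 and 7.51 CPM. Thus 3 of the 4 *Ythdf2* CKO mice lay below all controls, and *Ythdf2* CKO 3 lay among them. Without that mouse, here left out for its level of *Ythdc2*, the log2 fold change was -1.26 (unadjusted p = 0.00535, adjusted p = 0.283 by edgeR). Leaving out each mouse in turn gave -1.26 to -0.51, and 1 of these 8 fits had an unadjusted p below 0.05.

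For *Ythdc2* the log2 fold change in young mice was -0.74 (SE 0.43, 95% interval -1.65 to 0.17), with an adjusted p of 0.808 by edgeR and p = 0.171 by the exact permutation test. The covariate for Y-linked genes moved it to -1.19 (p = 0.0237, adjusted p = 0.645 by edgeR). At 1 year the 4 *Ythdf2* CTL mice had 18.6 to 41.1 CPM of *Ythdc2* (median 30.7) and the 5 *Ythdf2* CKO mice 13.4 to 24.9 CPM (median 14.8), with 3 of 5 below all controls. The log2 fold change was -0.75 (SE 0.34, 95% interval -1.48 to -0.02), with p = 0.0441 and an adjusted p of 0.480 by edgeR, and p = 0.0635 by the exact permutation test. Without the mice labelled 121 and 124 it was -0.73 (95% interval -1.50 to 0.04). *Ythdc2* was also the reader with the largest single difference between libraries of a mouse, 1.82 on the log2 scale in young *Ythdf2* CKO 1.

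**Figure D3:**
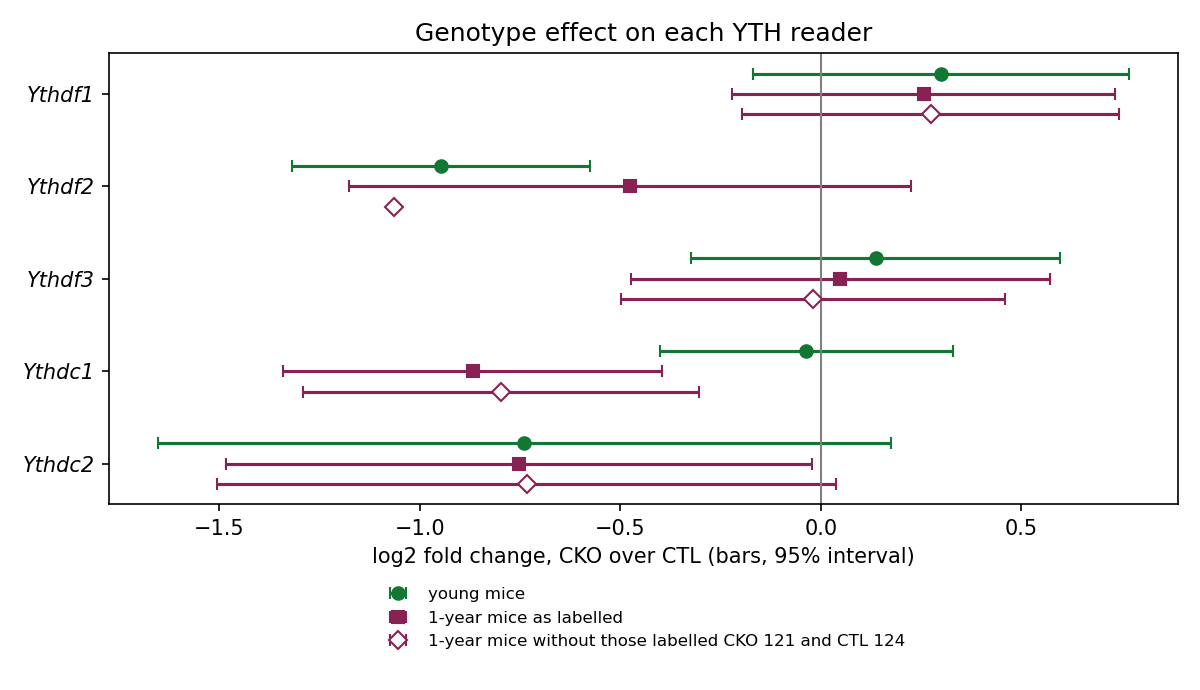
Log2 fold change of each reader in *Ythdf2* CKO over *Ythdf2* CTL mice (horizontal axis) with its 95% interval from edgeR, in young mice, in 1-year mice as labelled, and in 1-year mice without those labelled CKO 121 and CTL 124. *Ythdf2* in the last set has no interval because the mice were left out for its level. The estimates for *Ythdf1* are near 0.30 in each set, and that of *Ythdc1* changes from -0.04 in young to -0.87 in 1-year mice.

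No reader other than *Ythdf2* passed the test in young mice, and none of the 5 passed it at 1 year or for a difference of the genotype effect between the ages by the quasi-likelihood test of edgeR. At an unadjusted p below 0.05 were *Ythdc1* and *Ythdc2* at 1 year and *Ythdc1* in the test between ages, and DESeq2 called *Ythdc1* at 1 year. For *Ythdf2* that difference was 0.47 (95% interval -0.35 to 1.29, adjusted p = 0.999 by edgeR). It was -0.11 without the mice labelled 121 and 124, a description without a test because they were left out for their level of *Ythdf2*. The differences between ages for *Ythdf1*, *Ythdf3* and *Ythdc2* were -0.05, -0.09 and -0.02, with 95% intervals of -0.71 to 0.61, -0.78 to 0.60 and -1.21 to 1.18.

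In *Ythdf2* CTL mice the readers were compared between the ages in the fit of all 17 mice. The young and 1-year libraries belong to different sets of samples by their codes, so that age and set cannot be told apart. All 5 readers were higher on average in 1-year than in young controls, with log2 differences of 0.18 for *Ythdf1*, 0.36 for *Ythdf2*, 0.20 for *Ythdf3*, 0.33 for *Ythdc1* and 0.36 for *Ythdc2*. The median over all genes in this comparison was itself 0.11, so that relative to it the differences were between 0.07 (*Ythdf1*) and 0.25 (*Ythdf2*). None of the 5 readers was called by edgeR (adjusted p between 0.291 and 0.632, with 0 of 5 at an unadjusted p below 0.05), in a comparison that called 14.8% of genes. Without the mouse labelled *Ythdf2* CTL 124 and the mouse labelled *Ythdf2* CKO 121, the difference was 0.58 for *Ythdf2* and 0.19 for *Ythdc1*. The value for *Ythdf2* is a description without a test, because these mice were left out for their level of *Ythdf2*.

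To compare the readers with each other, the level was divided by the length of the principal transcript and is given as CPM per kb. In young *Ythdf2* CTL mice *Ythdc1* was highest at 32.7 ± 5.40 CPM per kb (SD, n = 4), followed by *Ythdf2* at 26.2 ± 3.62, *Ythdf1* at 22.4 ± 3.27, *Ythdf3* at 13.8 ± 1.42 and *Ythdc2* at 3.28 ± 1.31 CPM per kb. The ranges over mice of *Ythdc1* and *Ythdf2* overlapped, as did those of *Ythdf2* and *Ythdf1*, whereas *Ythdf3* lay below *Ythdf1* and *Ythdc2* below *Ythdf3* in every mouse of this group. *Ythdc2* was the lowest reader in all 17 mice. The place of *Ythdc1* depended on the length chosen. It ranked first in 10 of 17 mice by the principal transcript of 2960 bases and in 0 of 17 by the 13651 bases that all its annotated exons cover together.

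The order of *Ythdf2* and *Ythdf1* gave the same counts by either length. *Ythdf2* exceeded *Ythdf1* per kb in 3 of 4 young *Ythdf2* CTL mice, in 0 of 4 young *Ythdf2* CKO mice, in 3 of 4 1-year *Ythdf2* CTL mice and in 1 of 5 1-year *Ythdf2* CKO mice. The exceptions at 1 year were the mouse labelled *Ythdf2* CTL 124 and the mouse labelled *Ythdf2* CKO 121. *Ythdf2* took 42.0 ± 3.77% (SD, n = 4) of the summed Ythdf level in young *Ythdf2* CTL and 24.7 ± 5.64% (SD, n = 4) in young *Ythdf2* CKO mice. At 1 year the shares were 43.9 ± 6.51% (SD, n = 4) and 33.6 ± 13.5% (SD, n = 5), or 47.2 ± 1.10% (SD, n = 3) and 27.7 ± 3.65% (SD, n = 4) without the mice labelled 121 and 124.

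The summed level of the 3 paralogs was 62.3 ± 6.86 CPM per kb (SD, n = 4, range 52.8 to 67.5) in young *Ythdf2* CTL and 56.1 ± 7.91 CPM per kb (SD, n = 4, range 44.6 to 61.8) in young *Ythdf2* CKO mice, and the ranges overlapped. *Ythdf1* and *Ythdf3* together stood at 36.1 ± 4.69 CPM per kb in young *Ythdf2* CTL and 42.6 ± 8.76 CPM per kb in young *Ythdf2* CKO mice. At 1 year the sum of all 3 was 74.8 ± 18.9 CPM per kb (SD, n = 4) in *Ythdf2* CTL and 70.5 ± 8.52 CPM per kb (SD, n = 5) in *Ythdf2* CKO mice. Without the mice labelled 121 and 124 these sums were further apart, at 83.1 ± 10.8 CPM per kb (SD, n = 3) and 68.2 ± 7.78 CPM per kb (SD, n = 4). These sums and shares are descriptions of the same counts and were not tested. The mice labelled 121 and 124 were left out for their level of *Ythdf2*, which is part of every sum and share. The sums and shares without them therefore follow in part from that choice.

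**Figure D4:**
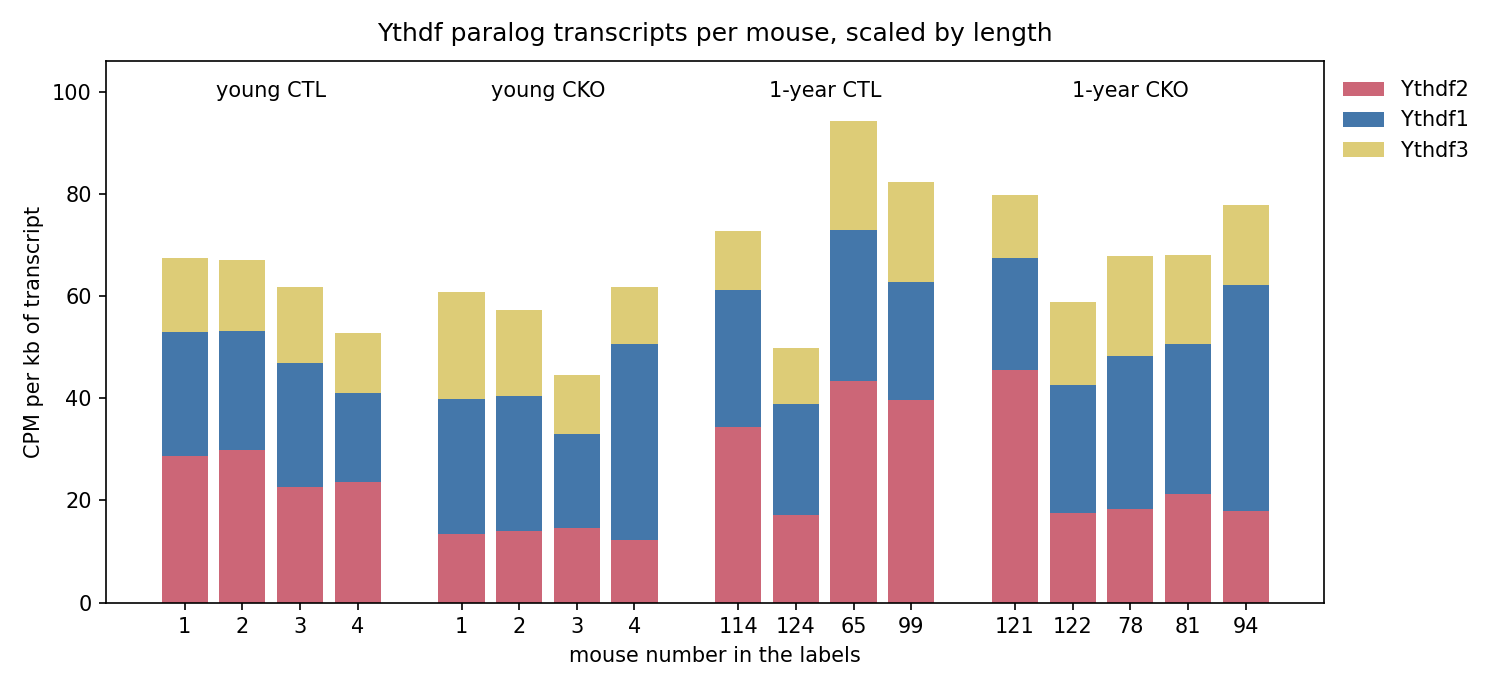
CPM per kb of principal transcript (vertical axis) of *Ythdf2*, *Ythdf1* and *Ythdf3*, stacked for each mouse (horizontal axis, mouse numbers of the labels) by group. The *Ythdf2* part is smaller in all 4 young CKO mice, and the stacked sum ranges from 44.6 to 61.8 in young CKO and from 52.8 to 67.5 in young CTL mice.

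For each reader the genes with the most similar pattern were found among 12347 genes, by Pearson's r of log2 CPM over the 17 mice after the mean of each age had been subtracted. *Cd1d1* (r = 0.88) and *Fbp1* (0.84) were the closest to *Ythdf2*. For *Ythdf1* the 3 closest were *Stx11* (r = 0.84), *Ceacam1* (0.79) and *Cotl1* (0.79), and for *Ythdf3* they were *Dennd6a* (r = 0.82), *Arl8b* (0.82) and *Atad1* (0.79). The closest to *Ythdc1* were *Mycbp2* (r = 0.93), *Itga4* (0.92) and *Eif4b* (0.90), and the closest to *Ythdc2* were *Cst3* (r = 0.91), *Selenok* (0.88) and *Mdn1* (0.88). These values describe the closest of many genes over mice that share library preparation and scaling, and carry no p.

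The genes that write and erase m6A did not pass the test at either age. All 13 members of this list were tested, and 0 were called by edgeR, by its likelihood ratio test over mice or by DESeq2 at either age, with 0 of 13 at an unadjusted p below 0.05 in young and 1 of 13 in 1-year mice. Over all genes tested, 0.174% and 0% were called by edgeR in young and 1-year mice, and 7.06% and 10.1% had an unadjusted p below 0.05. In young mice 8 of 13 had a positive log2 fold change, with a list median of 0.08, where 49.9% of all genes tested were positive and their median was 0.00. The smallest p in young mice was that of *Virma*, the scaffold of the writer complex, at 44.0 ± 8.99 CPM in *Ythdf2* CTL and 60.8 ± 13.5 CPM in *Ythdf2* CKO mice (log2 fold change 0.47, SE 0.23, adjusted p = 0.715 by edgeR). Next was *Mettl14*, the RNA-binding partner of the catalytic subunit, with a log2 fold change of -0.39 (SE 0.24, adjusted p = 0.838). At 1 year 5 of 13 were positive with a median of -0.03, and the smallest p was that of *Fto*, a demethylase, at 92.8 ± 31.7 CPM in *Ythdf2* CTL and 136 ± 15.7 CPM in *Ythdf2* CKO mice (log2 fold change 0.56, SE 0.23, adjusted p = 0.435). *Mettl3*, the catalytic subunit, followed with 0.41 (SE 0.21, adjusted p = 0.526). After leaving out the mice labelled 121 and 124, the log2 fold changes of both *Fto* and *Mettl3* were 0.50, and the list median was 0.00.

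Of the m6A-linked RNA-binding proteins without a YTH domain, 9 of 11 listed genes could be tested and 0 were called at either age by these 3 tests, with 2 of 9 at an unadjusted p below 0.05 at each age (7.06% and 10.1% of all genes). Their log2 fold changes were mostly negative, 2 of 9 being positive in young and 1 of 9 in 1-year mice (49.9% and 49.7% of all genes). List medians were -0.33 and -0.26 against 0.00 over all genes at both ages. Without the mice labelled 121 and 124, 4 of 9 were positive at 1 year and the median was -0.02. *Fxr1*, a paralog of the fragile X protein, was 85.6 ± 11.8 CPM in young *Ythdf2* CTL and 53.8 ± 10.6 CPM in young *Ythdf2* CKO mice (log2 fold change -0.67, SE 0.20, adjusted p = 0.342 by edgeR). At 1 year it was 65.6 ± 20.3 against 39.3 ± 10.4 CPM (log2 fold change -0.73, SE 0.26, adjusted p = 0.398), and the value without the 2 mice was -0.72. *Rbmx*, which encodes the nuclear protein hnRNP G, had -0.37 in young mice (SE 0.15, adjusted p = 0.571), and *Prrc2a* had -0.76 at 1 year (SE 0.26, adjusted p = 0.387) and -0.82 without the 2 mice.

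The partners through which YTHDF2 brings mRNA to decay, the CCR4-NOT subunits, UPF1, HRSP12 and the subunits of RNase P/MRP, had 21 of 22 genes tested. None was called at either age by the same 3 tests, with 1 of 21 at an unadjusted p below 0.05 in young and 4 of 21 in 1-year mice (7.06% and 10.1% of all genes). In young mice 13 of 21 were positive with a median of 0.08, and at 1 year 12 of 21 with a median of 0.06 (49.9% and 49.7% of all genes were positive). *Rpp38*, an RNase P/MRP subunit, stood at 70.6 ± 11.3 CPM in young *Ythdf2* CTL and 103 ± 36.2 CPM in young *Ythdf2* CKO mice (log2 fold change 0.55, SE 0.23) without a call (adjusted p = 0.620), and *Cnot8*, a deadenylase, had 0.22 (SE 0.13, adjusted p = 0.834). At 1 year *Cnot6*, also a deadenylase, had -0.61 (SE 0.23, adjusted p = 0.417), and *Pop4*, a further RNase P/MRP subunit, had 0.91 (SE 0.35, adjusted p = 0.417). With the mice labelled 121 and 124 left out, these were -0.49 and 0.73, and the list median was 0.10.

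The partners of YTHDC1 and YTHDC2 had log2 fold changes between -0.24 and 0.03 in young and between -0.38 and 0.26 in 1-year mice. Of 9 listed genes 8 were tested, 0 were called at either age by the same 3 tests, and 0 had an unadjusted p below 0.05. Over all genes 0.174% and 0% were called by edgeR in young and 1-year mice, and 7.06% and 10.1% had an unadjusted p below 0.05. The median log2 fold change was -0.07 in young and -0.12 in 1-year mice, with 1 of 8 positive at each age (49.9% and 49.7% of all genes). *Srsf3*, a splicing and export factor that binds YTHDC1, stood at 931 ± 55.1 CPM in young *Ythdf2* CTL and 843 ± 83.8 CPM in young *Ythdf2* CKO mice (log2 fold change -0.14, SE 0.12), and *Srsf1* had -0.22 (SE 0.17). At 1 year *Nxf1*, an mRNA export receptor, had -0.24 (SE 0.17), and *Xrn1*, the exoribonuclease that binds YTHDC2, had -0.38 (SE 0.29). Leaving out the mice labelled 121 and 124 gave -0.27 and -0.20, with a list median of -0.12.

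**Figure D5:**
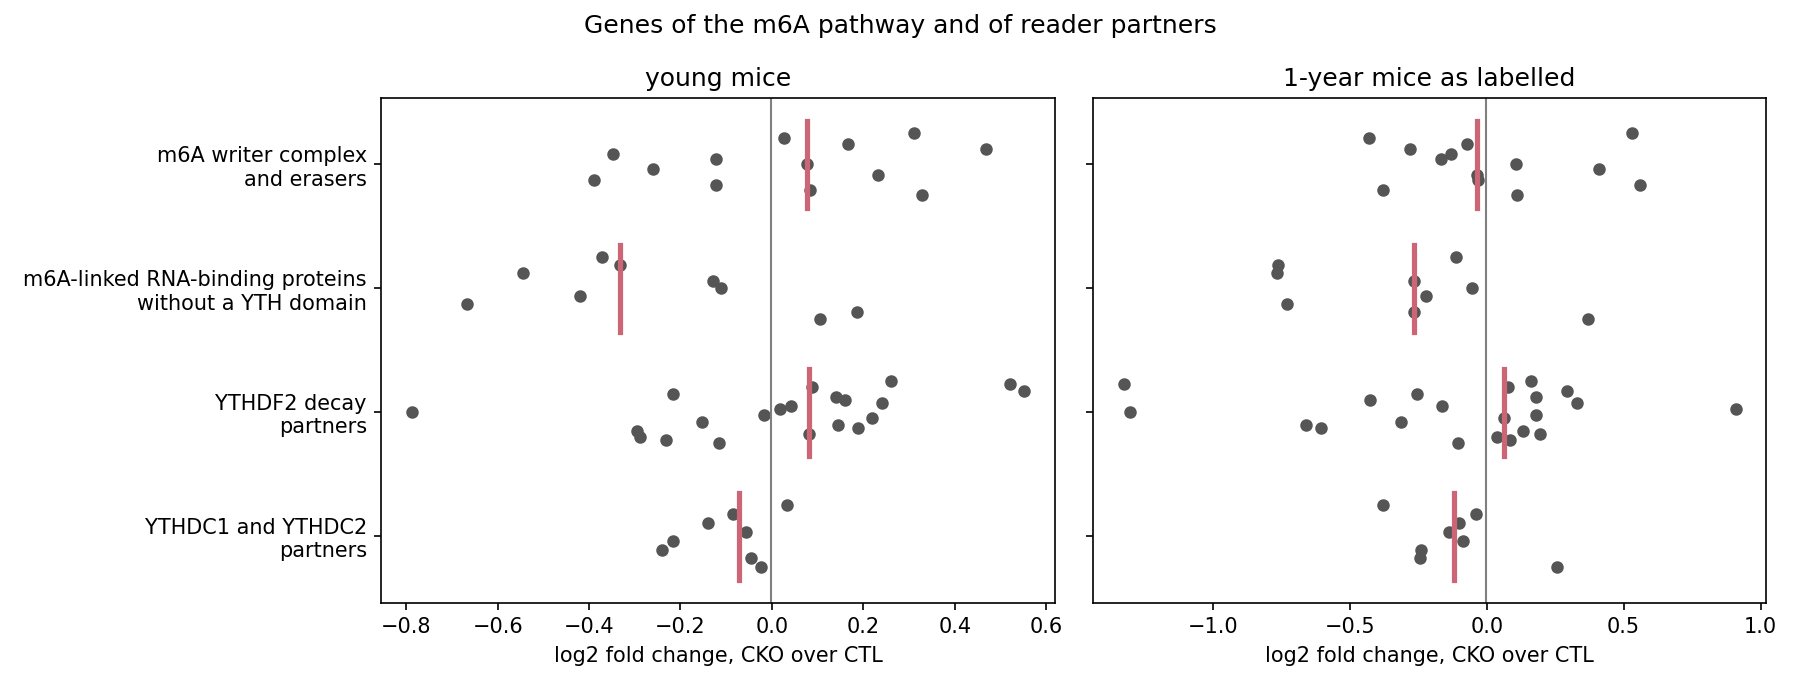
Log2 fold change of each gene (points, horizontal axis) in 4 lists of m6A genes and reader partners, in young mice and in 1-year mice as labelled. Thick vertical bars are list medians and the thin line is the median of all genes tested. List medians lie between -0.33 and 0.08, and no gene of these lists was called.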

How the data were processed

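Bulk RNA-seq counts of 34 libraries, each of 100 HSCs made by SMART-Seq2, were used. The authors used HISAT2 to align reads to GRCm38 (mm10) and Rsubread to count them per gene, and the deposited values are raw, unnormalized counts. The annotation, the use of strand and the rule for reads shared by genes are not given in the sources used here. Of the rows, 1 held no counts, and 20 row names had turned into dates.

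Counts of libraries A and B were summed per mouse, so that mice are the replicates (n = 4 or 5 per group). Labels were not changed. The main test was edgeR's quasi-likelihood test (edgeR 4.0.16, R 4.3.3) after filterByExpr (count 10 or more, total 15 or more) and TMM scaling. Adjusted p-values are Benjamini-Hochberg values over all genes, called below 0.05. Ages were fitted apart, and all 17 mice together for the difference between ages. Exact permutation tests (SciPy) compared single readers over mice. The script was tested on simulated data. Alternatives were DESeq2 1.42.0, its size factors, likelihood ratio tests, libraries as replicates, no filter, a Y-linked covariate, a replicate block and leaving out mice.

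Gene models and transcript sequences came from GENCODE M21. No floor was needed for a reader in the 17 mice, whose lowest count was 40. The 95% intervals are those of the edgeR fits over mice.

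Members and gene lists were chosen with earlier results of these data known. Named are all readers, the 3 genes most like each, and in each list the genes called and the 2 with the smallest p at each age. A result under this rule is not reported here. Other named genes were chosen after their values were seen.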

Additional observations from a re-analysis of the deposited data

Results flagged for a closer look

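Of 20 sets of values, 5 readers in 4 groups, 2 held a mouse far from the rest of its group by Dixon's criterion, which chance gives in about 1 of 20 sets. *Ythdf2* in the mouse labelled 1-year *Ythdf2* CKO 121 was 188 CPM, and the next highest mouse of that group had 87.8 CPM. *Ythdf1* in young *Ythdf2* CTL 4 was 55.8 CPM, and the next lowest had 74.1 CPM.

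Library B of the 1-year *Ythdf2* CTL mouse 99, which no comparison used, had reads of every reader above the limit of 3 counts: 7 of *Ythdf1*, 24 of *Ythdf2*, 8 of *Ythdf3*, 28 of *Ythdc1* and 23 of *Ythdc2*, out of 187034. Its 24 counts of *Ythdf2* correspond to 128 CPM without TMM scaling, against 165 CPM with TMM scaling in the mouse's library A.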

How the results depend on the processing

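In young mice the log2 fold change of *Ythdf2* kept its direction in all settings tried. Of the 8 fits that left out 1 mouse, 1 kept the call. Among the other settings the call was lost in 3: -0.95 with all 17 mice in 1 fit (adjusted p = 0.804), -0.90 with a Y-linked covariate (adjusted p = 0.170) and -0.94 with a replicate block by mouse number (adjusted p = 0.128). That replicate block rests on numbers that mice of the 2 genotypes only share. Same-numbered mice did not deviate together (r between -0.02 and 0.05, with 2 of 4 control mice closest to their own number). With the block 12 genes were called higher and 2 lower, against 15 and 5 without it. At 1 year *Ythdc1* passed the threshold at -0.88 by DESeq2 and -0.87 by the likelihood ratio test over mice, but not by the main test (adjusted p = 0.297 by edgeR). With libraries as replicates it passed at -0.94 by the likelihood ratio test and -0.93 with a replicate block by library letter (adjusted p = 0.000543 and 0.0368). Both library fits count the 2 libraries of a mouse as independent, so their p-values and numbers of genes called overstate the evidence. *Ythdf3* at 1 year turned to -0.019 without the mice labelled 121 and 124. The difference of the genotype effect between ages then became -0.11 for *Ythdf2*, without a test because these mice were left out for its level, and 0.016 for *Ythdc2*. Of 120 values of single readers under such settings, 110 were rated the same, in general by direction and side of the threshold. Values of *Ythdf2* without the mice labelled 121 and 124 have no test. They were rated by whether they moved by less than 1 SD of log2 CPM within groups, so that -1.06 against -0.48 at 1 year counted as the same. The cause of the changes was not tested.

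The number of genes called moved far more. In young mice 15 were higher and 5 lower, against 58 and 19 by DESeq2, 54 and 13 by the likelihood ratio test over mice, 66 and 24 by that over libraries, 35 and 15 with the block by library letter, 1 and 0 with all mice in 1 fit, and 9 and 1 with the Y-linked covariate. At 1 year 0 were called, against 54 and 50, 42 and 34, 136 and 284, 15 and 25, and 3 and 2 in the first 5 of these settings, and 25 and 15 without the mice labelled 121 and 124. Without them the difference between ages had 1 gene higher and 14 lower.

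Leaving out each mouse in turn gave ranges, in young mice, of 0.089 to 0.45 for *Ythdf1* (lowest without *Ythdf2* CKO 4), -1.01 to -0.87 for *Ythdf2*, -1.26 to -0.51 for *Ythdc2* (lowest without *Ythdf2* CKO 3), -0.059 to 0.25 for *Ythdf3* (negative without *Ythdf2* CKO 1), -0.11 to 0.083 for *Ythdc1* (positive without *Ythdf2* CKO 4 or *Ythdf2* CTL 2), 0 to 14 genes higher and 0 to 4 lower, with 0 in both directions without *Ythdf2* CTL 1 or 2. At 1 year it gave 0.070 to 0.35 for *Ythdf1* (lowest without *Ythdf2* CKO 94), -0.84 to -0.34 for *Ythdf2* (lowest without the mouse labelled *Ythdf2* CKO 121), -0.11 to 0.22 for *Ythdf3* (lowest without the mouse labelled *Ythdf2* CTL 124), 0 to 12 genes higher and 0 to 4 lower, the most without the mouse labelled *Ythdf2* CKO 121. For the difference between ages it gave -0.23 to 0.16 for *Ythdf1*, 0.11 to 0.62 for *Ythdf2* (lowest without the mouse labelled *Ythdf2* CKO 121), -0.23 to 0.11 for *Ythdf3*, -0.26 to 0.50 for *Ythdc2* and 0 to 2 genes lower. For age in controls, *Ythdf3* ranged from -0.0013 to 0.33 (lowest without *Ythdf2* CTL 65), *Ythdf1* from 0.079 to 0.24, *Ythdf2* from 0.20 to 0.57, *Ythdc1* from 0.18 to 0.44 and *Ythdc2* from 0.16 to 0.59, with 360 to 956 genes higher and 536 to 1194 lower, the fewest without young *Ythdf2* CTL 4. Depth limits *Ythdc2* most, which had 40 counts in 1 mouse.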
